A study of Mus musculus with 38 samples.

Results

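The interferon-inducible GTPase genes Gbp2, Gbp3, Igtp, Irgm1, Irgm2 and Iigp1 were followed across spleens of 38 BXD strains through every probe annotated to them. Of the 6 genes, 5 had a probe on the array, with 6 probes among the 34492 on it, and 4 of these probes were analysed, 1 each for Gbp3, Igtp, Irgm1 and Irgm2, among 17583 probes kept for 11167 named genes. Gbp2 had no annotated probe and is named only. Both Iigp1 probes were detected on 0 of 38 arrays. BXD strains are recombinant inbred mouse lines, each of which carries its own fixed mix of C57BL/6 and DBA/2 chromosome segments, and the study set spleen expression against lymphocyte phenotypes of the same strains. Every strain was an untreated control with 1 single-colour Illumina Mouse-6 v1.1 array of spleen RNA, pooled from 2 mice of the same sex aged 8 to 12 weeks. By the labels, BXD18, BXD38 and BXD96 were female (3 arrays) and the remaining 35 were male. The strain was the replicate, so genotype and pool cannot be told apart within a strain, and p-values measure the spread between strains.

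The immunity-related GTPases and the guanylate-binding proteins are large GTPases that interferons, interferon gamma above all, induce in macrophages, lymphocytes and many other cells. Irgm1, Irgm2 and Igtp (also called Irgm3) encode the regulatory class of immunity-related GTPases, which sit on the membranes of the cell and hold the effector class inactive there. Iigp1 (also called Irga6) encodes an effector that gathers on the vacuoles of parasites such as Toxoplasma gondii, where guanylate-binding proteins such as Gbp2 and Gbp3 also act.

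Igtp and Irgm2 are neighbours on chromosome 11, their annotated start sites 15421 bases apart on the same strand, and Irgm1 lies elsewhere on that chromosome. Gbp3 and Gbp2 lie in a cluster of guanylate-binding protein genes on chromosome 3. The promoters of the 4 genes analysed are printed because interferon signalling acts through short motifs at such starts. Each sequence runs from 250 bases before to 50 bases after the RefSeq start, 5′ to 3′ on the strand of the gene, in build GRCm38.p6. Capitals mark matches to the interferon-stimulated response element, searched as GAAANNGAAA, or to the gamma-activated site, searched as TTCNNNGAA, on both strands.
Igtp, chr11:58199306-58199605, plus strand: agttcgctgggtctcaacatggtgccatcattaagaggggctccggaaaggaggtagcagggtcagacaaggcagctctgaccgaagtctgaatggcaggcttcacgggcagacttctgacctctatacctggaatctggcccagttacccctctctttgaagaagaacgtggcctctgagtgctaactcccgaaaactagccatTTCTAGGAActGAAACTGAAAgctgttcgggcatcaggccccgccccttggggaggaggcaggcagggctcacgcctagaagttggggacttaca
Irgm2, chr11:58214727-58215026, plus strand: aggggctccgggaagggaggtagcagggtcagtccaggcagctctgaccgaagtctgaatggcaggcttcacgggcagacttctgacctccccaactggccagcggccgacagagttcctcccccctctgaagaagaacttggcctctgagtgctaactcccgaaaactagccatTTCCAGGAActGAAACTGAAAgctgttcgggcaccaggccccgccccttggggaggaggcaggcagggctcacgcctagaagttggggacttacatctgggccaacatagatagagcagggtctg
Irgm1, chr11:48871371-48871670, minus strand: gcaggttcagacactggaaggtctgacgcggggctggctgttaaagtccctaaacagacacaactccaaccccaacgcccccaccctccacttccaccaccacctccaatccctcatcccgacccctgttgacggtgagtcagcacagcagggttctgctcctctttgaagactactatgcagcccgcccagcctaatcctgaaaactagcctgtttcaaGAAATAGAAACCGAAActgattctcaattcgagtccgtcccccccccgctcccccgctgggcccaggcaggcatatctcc
Gbp3, the first of 2 entries, chr3:142559794-142560093, plus strand: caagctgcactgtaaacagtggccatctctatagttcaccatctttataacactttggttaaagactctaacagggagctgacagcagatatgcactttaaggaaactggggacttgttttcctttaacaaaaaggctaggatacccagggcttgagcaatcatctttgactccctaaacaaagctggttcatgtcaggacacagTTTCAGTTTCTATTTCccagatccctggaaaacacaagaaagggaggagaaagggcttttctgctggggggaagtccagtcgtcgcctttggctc

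Among 32851 mouse promoter windows of the same length, 3.44% held a match to the first motif, 8.3% held the second and 0.454% held both. Igtp and Irgm2 held both, side by side and in the same order, with 1 match to each. The match to the second motif began 45 bases before the start of Igtp and 75 before that of Irgm2. The match to the first motif began 34 and 64 bases before them. Irgm1 and the first entry of Gbp3 each held 2 overlapping matches to the first motif and 0 matches to the second. The second Gbp3 entry held 0 matches to either motif, and the promoter of Gbp2 held 1 match to the first. The windows of Igtp and Irgm2 aligned over 265 bases, with 244 identical (92.1%), and shared an unbroken run of 61 bases. The longest run that either shared with the windows of Irgm1, Gbp3, Gbp2 or another guanylate-binding protein gene, Gbp2b, was 11 bases. Runs shared with other promoters were not searched. A match is a description of letters, not evidence of binding.

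The 4 analysed members were detected on all 38 arrays (a detection p-value, smoothed over probes of like intensity, under 0.01). Levels are log2 intensities after background correction and quantile normalization, and no probe's level is set against another's. The arrays had 13790 to 15730 probes detected each. The mean of 12 B cell genes ran from 11.09 to 11.94 and that of 12 T cell genes from 8.95 to 10.15 on the log2 scale, so markers of spleen lymphocytes were present on every array. The mean of 19 pancreas genes ran from 5.44 to 15.39, so some spleen pools also held pancreatic transcripts. In whole spleen, fewer cells of a type and less RNA per cell cannot be told apart. Positions and sequences of the array probes were not used here, so the exon, strand variants under a probe and reads of a close paralogue (Igtp and Irgm2 most of all) were not tested.

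Irgm1, the best studied regulator of the family in mycobacterial infection, had a lowest level of 8.95 in BXD11, a median of 9.56 and a highest level of 10.29 in BXD98. Its SD over the 38 arrays was 0.32. By the detection p-values as deposited, Irgm1 was detected on 25 of 38 arrays, and on all 38 after smoothing. Igtp ran from 10.84 in BXD65 through a median of 11.42 to 12.01 in BXD32, with an SD of 0.28. Irgm2 ran from 10.90 in BXD19 through a median of 11.48 to 12.00 in BXD12, also with an SD of 0.28. Gbp3 ran from 11.40 in BXD11 through a median of 11.93 to 12.44 in BXD98, with an SD of 0.25. The median SD over all probes kept was 0.29, so the spread of the 4 genes was near that of a typical probe in these spleens.

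BXD6 and BXD11 were among the lowest 9 arrays for all 4 genes, and BXD51 and BXD96 were among the highest 9 for all 4. In BXD6 the levels were 9.10 for Irgm1, 10.99 for Igtp, 11.12 for Irgm2 and 11.64 for Gbp3. In BXD96 they were 9.89, 11.84, 11.88 and 12.25 in the same order. For the regulators Irgm1, Igtp and Irgm2 alone, 5 arrays were in the lowest 9 for all 3 and 3 arrays in the highest 9. Single strains broke the pattern for Gbp3. BXD32 had the highest Igtp level but a Gbp3 level of 11.51, and BXD68 had a Gbp3 level of 12.29 with 11.12 for Igtp and 11.10 for Irgm2. The array-by-array plot shows the 4 genes in 1 strain order.

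**Figure D1:**
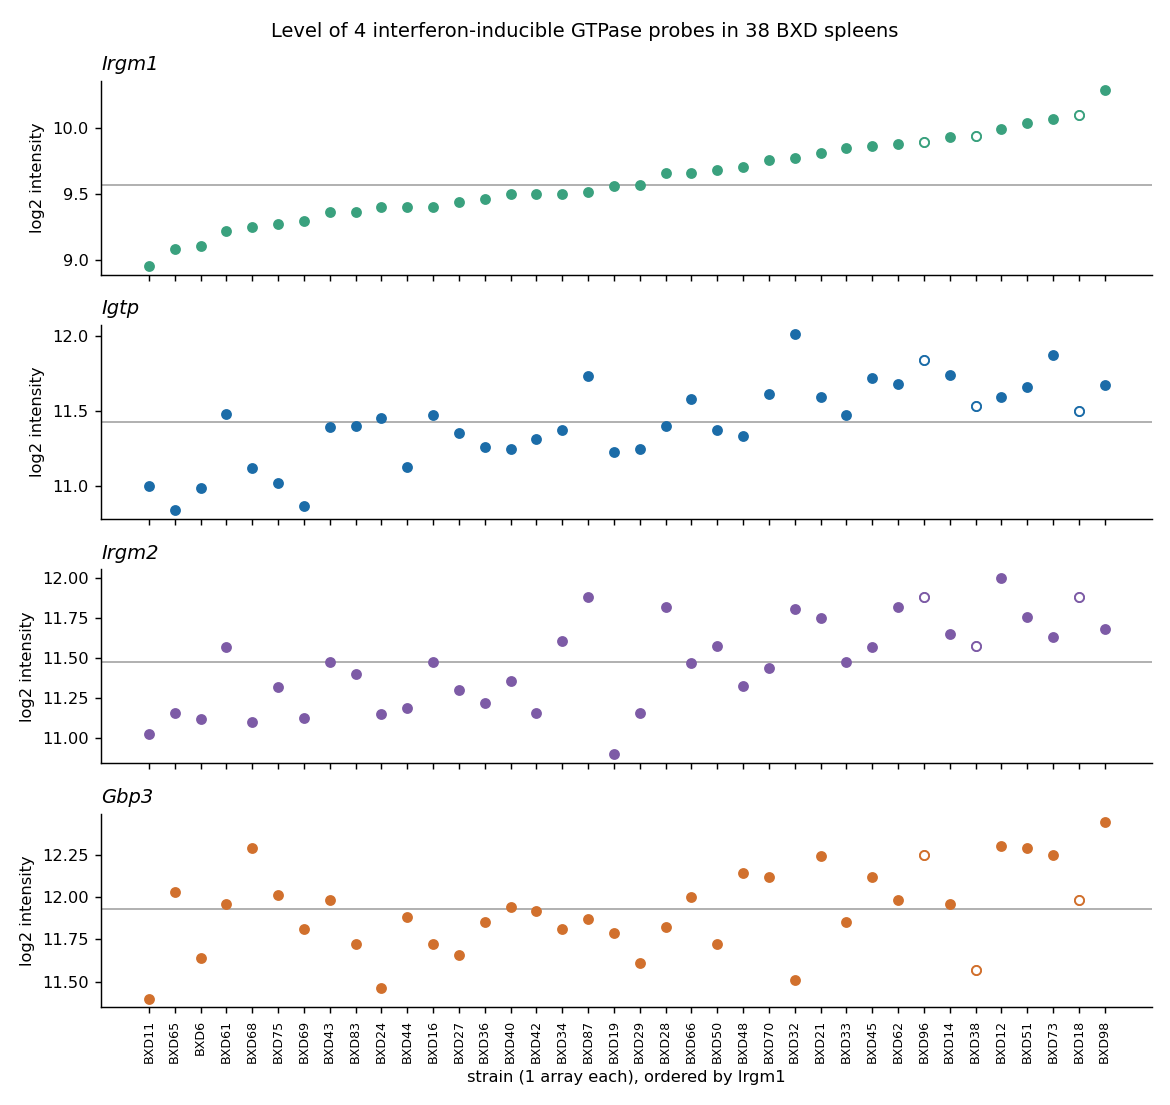
Log2 intensity of Irgm1, Igtp, Irgm2 and Gbp3 in each of 38 strains, 1 point per array, ordered by Irgm1; open points are the 3 arrays labelled female and the line is the median of the gene. Igtp and Irgm2 climb with Irgm1 from left to right, while Gbp3 scatters more, with BXD32 and BXD38 low at the right and BXD68 high at the left.

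Iigp1 was not well above background in any strain. Its probes had raw intensities of 54.08 to 100.5 and 58.73 to 91.53, while the median of undetected probes ran from 68.21 to 97.25 over the arrays. No level, step or correlation is given for it.

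A strain-level step, in which arrays fall into a low and a high part, was looked for by the split that leaves the least spread within the parts, with at least 4 arrays on each side. It was called where that split held 80% or more of the variance and the part means differed by 0.5 log2 or more. Of the 4 members 0 had a step, beside 819 of 17583 probes (4.66%). The best split held 65.5% of the variance for Gbp3, 64.3% for Igtp, 71.5% for Irgm1 and 72.5% for Irgm2, and the median over all probes kept was 66.6%. The largest gap between neighbouring arrays was 0.09 to 0.10 for the 4 genes, on ranges of 1.04 to 1.35, so their levels ran on without a break.

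Among 12 other interferon-inducible GTPases analysed, 1 had a step, Gbp2b, a guanylate-binding protein gene that is the second after Gbp3 in the gene order of chromosome 3. On 15 arrays Gbp2b had levels of 5.21 to 6.83, and on the other 23 of 10.80 to 12.63, and that split held 97.7% of its variance. The lower level is near the background of the arrays, where undetected probes had medians of 4.67 to 4.7, and Gbp2b was detected on 13 of those 15 arrays and on all 23 of the others. With each dim value set no lower than the lowest detected probe of its array, the mean log2 values of the 2 levels differed by at least 46.8-fold. This compares means, and single arrays of the 2 levels can lie closer. Of 24 neighbours of the 4 members that were analysed, 1 had a step, and it was again Gbp2b. A strain variant under the Gbp2b probe and a difference in its RNA cannot be told apart. The plot of arrays ordered by level sets this gap beside the even slopes of the members.

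**Figure D2:**
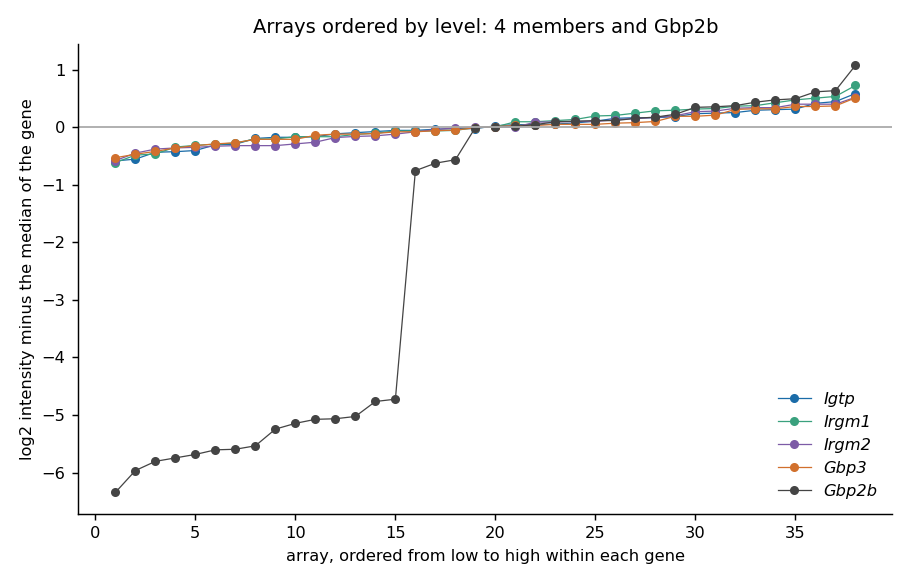
Log2 intensity minus the median of the gene for Igtp, Irgm1, Irgm2, Gbp3 and Gbp2b, with the 38 arrays ordered from low to high within each gene. The 4 members form shallow slopes without a gap, while Gbp2b breaks after 15 arrays, with a gap of 3.98 log2.

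Within the levels of Gbp2b, 8 relations with members were computed, by permutation test with Benjamini-Hochberg adjustment. Over the 23 arrays of the higher level, Gbp3 correlated with Gbp2b with r = 0.55 and rho = 0.576 (adjusted permutation p = 0.0285 for r). That r was 0.428 without the 2 arrays farthest from the median. Over the same arrays r was 0.235 for Igtp, 0.00642 for Irgm1 and 0.108 for Irgm2, none past the threshold. Over the 15 arrays of the lower level the regulators passed, with r = 0.649 for Igtp and 0.637 for Irgm1 (adjusted permutation p = 0.0285 for both) and 0.589 for Irgm2 (adjusted permutation p = 0.0425). Without the 2 arrays farthest from the median of Gbp2b at that level, these r were 0.526, 0.583 and 0.499. Gbp3 had r = 0.302 at the lower level, and 0.201 without those 2 arrays. The signal of Gbp2b is dim at the lower level, and the difference between levels was not tested.

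The 3 regulators rose and fell together over the strains, and the r values with Gbp3 were lower, a difference that was not tested. Irgm2 and Igtp had r = 0.777 and rho = 0.816, Irgm1 and Igtp had r = 0.765 and rho = 0.766, and Irgm1 and Irgm2 had r = 0.704 and rho = 0.733. Each of these had an adjusted permutation p of 2.0e-05 over the 6 pairs, from the smallest p that 100000 resamples can give, 1.0e-05. The 95% intervals of r were 0.609 to 0.879, 0.59 to 0.872 and 0.495 to 0.835. Without the 2 arrays farthest from the median, r was 0.803, 0.754 and 0.687. All 3 genes lie on chromosome 11, with Igtp and Irgm2 adjoining and Irgm1 elsewhere. Whether chromosome segments shared between strains play a part in these correlations was not tested.

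Gbp3 correlated with Irgm1 with r = 0.499 and rho = 0.413 (adjusted permutation p = 0.00216 for r and 0.0161 for rho). That r was 0.344 without BXD11 and BXD98, the lowest and the highest arrays for both genes. With Irgm2 Gbp3 had r = 0.397 and rho = 0.373 (adjusted permutation p = 0.0168 for r and 0.0263 for rho), and r was 0.341 without BXD12 and BXD19. With Igtp it had r = 0.293 and rho = 0.338 (adjusted permutation p = 0.0764 for r and 0.0394 for rho), and the interval of r ran from -0.0293 to 0.56. Without BXD32 and BXD65, the highest and lowest arrays for Igtp, that r was 0.488 (adjusted permutation p = 0.00378). In the processed table of the authors, r for Irgm1 and Irgm2 was 0.103, for Irgm2 and Igtp 0.249 and for Irgm2 and Gbp3 -0.0524. In that table BXD12 alone stood apart, and without it the same pairs had r of 0.701, 0.793 and 0.354.

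**Figure D3:**
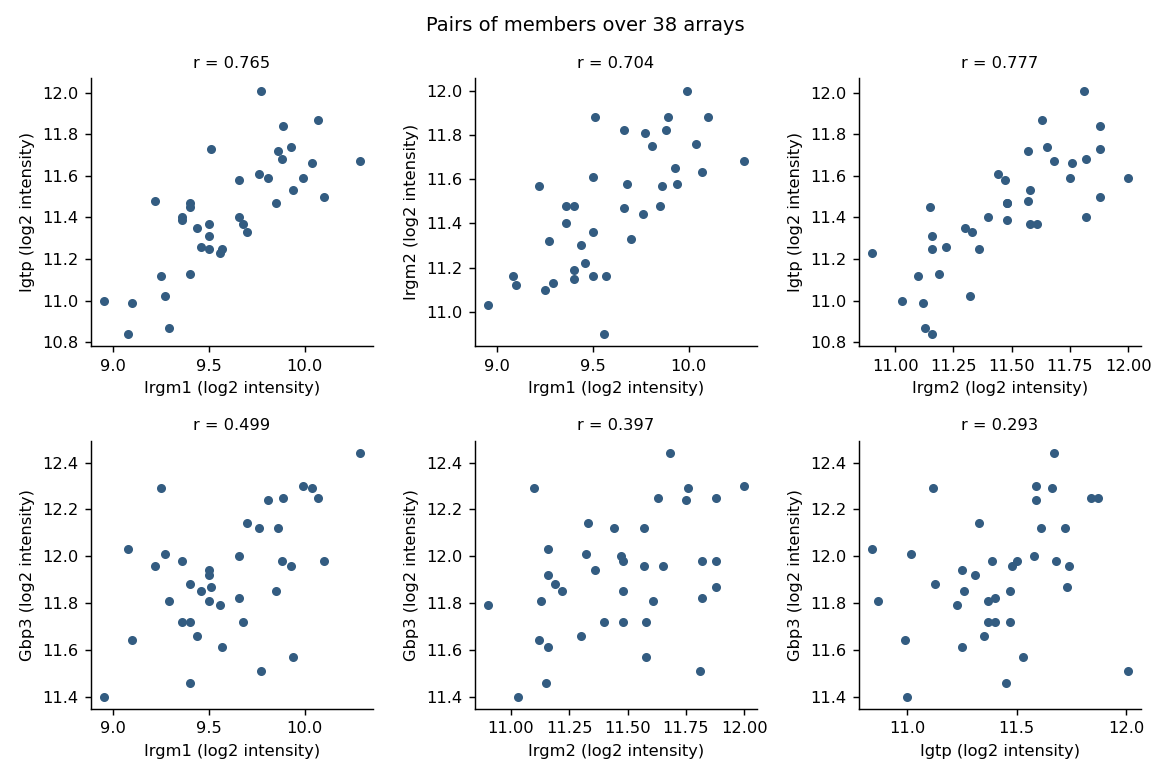
Log2 intensity of each pair of members over 38 arrays, 1 point per array, with Pearson r above each panel. The pairs among Irgm1, Igtp and Irgm2 form narrow bands (r from 0.704 to 0.777), and the pairs with Gbp3 are wider (r from 0.293 to 0.499).

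Each member was then set against every other probe kept, by a limma fit of log2 intensity on the level of the member scaled to its SD, with Benjamini-Hochberg adjustment over 17582 probes and calls at an adjusted p under 0.05. Slopes are given in log2 units per SD of the member. With Irgm1, 59 probes were called (0.336%), with Igtp 20 (0.114%), with Irgm2 22 (0.125%) and with Gbp3 777 (4.42%). The members' r with each other are given above and are left out of the ranking that follows. Outside the members, the genes most like Irgm1 were Oasl1, r = 0.794, Parp9, r = 0.793, Oas2, r = 0.751, Parp12, r = 0.75, and Oas1g, r = 0.747. Oas2, Oas1g and Oasl1 belong to the oligoadenylate synthetase family of antiviral genes, and Parp9 and Parp12 are interferon-induced ADP-ribosyltransferase family genes. The slope of Oas2 on Irgm1 was 0.71 ± 0.10 (SE, n = 38) and that of Oasl1 0.67 ± 0.08, with limma adjusted p-values of 6.64e-05 and 1.32e-05.

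Igtp, whose r with Irgm2 and Irgm1 were higher, was outside the members most like Parp12, r = 0.72, Oasl1, r = 0.705, Oas1g, r = 0.679, and Dhx58, r = 0.669, which encodes an RNA helicase of the virus-sensing family. The fifth was Lamc1, a laminin chain gene, r = -0.664. Irgm2, whose r with Igtp and Irgm1 were also higher, was outside the members most like Gbp7, r = 0.671, Tcea3, r = -0.67, Parp9, r = 0.657, Map4k4, r = -0.652, and Parp12, r = 0.637. Parp12, on chromosome 6, was thus among the 5 closest genes outside the members for each of the 3 regulators. None of these genes is among the 20 genes before or after the member in the gene order, where Igtp and Irgm2 are neighbours of each other. Leaving out BXD69 took the probes called with Igtp to 181, BXD98 to 35 and BXD75 to 13. For Irgm2, leaving out any 1 of 14 arrays moved the count by over 1.5 times, from 4 without BXD11 or BXD12 to 297 without BXD24, and it was 3 without the 2 farthest arrays, BXD12 and BXD19. In the processed table of the authors it was 665, and 5 without BXD12.

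Genes of the type I interferon response, the antiviral programme, went with the regulators. Of 28 such genes analysed, 15 rose with Irgm1, beside 0.322% of all genes higher with it, and 0 fell. The median r of the list with Irgm1 was 0.621, against 0.0335 over all genes. Irf7, a transcription factor of the interferon response, had a slope of 0.37 ± 0.06 (SE, r = 0.681), and Ddx58, which encodes the RNA sensor RIG-I, one of 0.21 ± 0.04 (r = 0.701). Ifit3, an antiviral gene of the tetratricopeptide family, had a slope of 0.38 ± 0.07 (r = 0.674). The count with Irgm1 stayed between 14 and 17 when any single array was left out. At an unadjusted p under 0.05 there were 21 of the 28 with each of Irgm1, Igtp and Irgm2 and 13 with Gbp3. Differences between members in such counts were not tested. The share of all genes at that unadjusted p is not given beside these or later such counts, so they are not read as an excess.

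With Igtp 7 of the 28 rose, beside 0.107% of genes higher, and the list median of r was 0.508, against 0.0238 over all genes. They were Oasl1, Oas1g, Oas2, Dhx58, Irf7, Cmpk2 and Lgals9. With Irgm2 5 rose, beside 0.116% of genes, with a list median of 0.469 against -0.00108. These were Parp9, Cmpk2, Dtx3l, Isg20 and Oasl1, and the call was lost for all 5 without BXD11, BXD18 or BXD96 and in the 35 male arrays. It was 11 genes without BXD24, and 11 genes with Igtp without BXD69. With Gbp3 2 rose, Dtx3l (r = 0.674) and Ddx58 (r = 0.614), beside 3.64% of genes higher, and the list median was 0.29 against 0.0096. That count was 5 without BXD6 or BXD61 and 1 without BXD98. Over all 38 arrays 0 genes of the list fell with any member, and without BXD21, BXD50 or BXD69 1 fell with Gbp3. Of the 28 genes 3 lay at 2 levels by the step rule (Ifi35, Trim30a and Ifi205), and none of these was among those called.

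Beside 0.322% of all genes higher with Irgm1, 6 of the 12 other interferon-inducible GTPases rose with it. They were Gm4951 (r = 0.728), Gm12250 (r = 0.714) and Tgtp1 (r = 0.571), all of the immunity-related GTPase family, the guanylate-binding protein gene Gbp7 (r = 0.662), and the Mx genes Mx1 (r = 0.677) and Mx2 (r = 0.605). Their slopes ran from 0.20 to 0.46 log2 per SD of Irgm1. With Gbp3 4 rose, beside 3.64% of all genes, namely Mx1 (r = 0.596), Gbp7 (r = 0.551), Gbp5 (r = 0.502) and 9930111J21Rik2 (r = 0.543). With Igtp 1 rose, Gm12250 (r = 0.602), beside 0.107% of all genes, and with Irgm2 1, Gbp7, beside 0.116%. At an unadjusted p under 0.05, with no share of all genes beside it, there were 8 of the 12 with Irgm1, 7 with Igtp, 6 with Irgm2 and 8 with Gbp3. Of these, Gbp5 and Gbp7 adjoin Gbp3 on chromosome 3, Gm12250 adjoins Igtp, and Tgtp1 is the sixth gene after Irgm1. Without BXD98 the count was 0 with Gbp3, as it was without BXD11 and BXD98 together, and 4 with Irgm1. The single call with Igtp was lost without any 1 of 21 arrays, and the count was 2 without BXD32. With Irgm2 the count was 0 without BXD12 and 3 without BXD24 or BXD34. Of the neighbours analysed, 2 of 7 rose with Gbp3, 2 of 10 with Igtp (Gm12250 and Irgm2), 1 of 8 with Irgm1 and 1 of 10 with Irgm2 (Igtp). The shares of all genes beside these counts are those given above for each member. Paralogues that share sequence in these clusters may share probe signal, which was not tested.

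**Figure D4:**
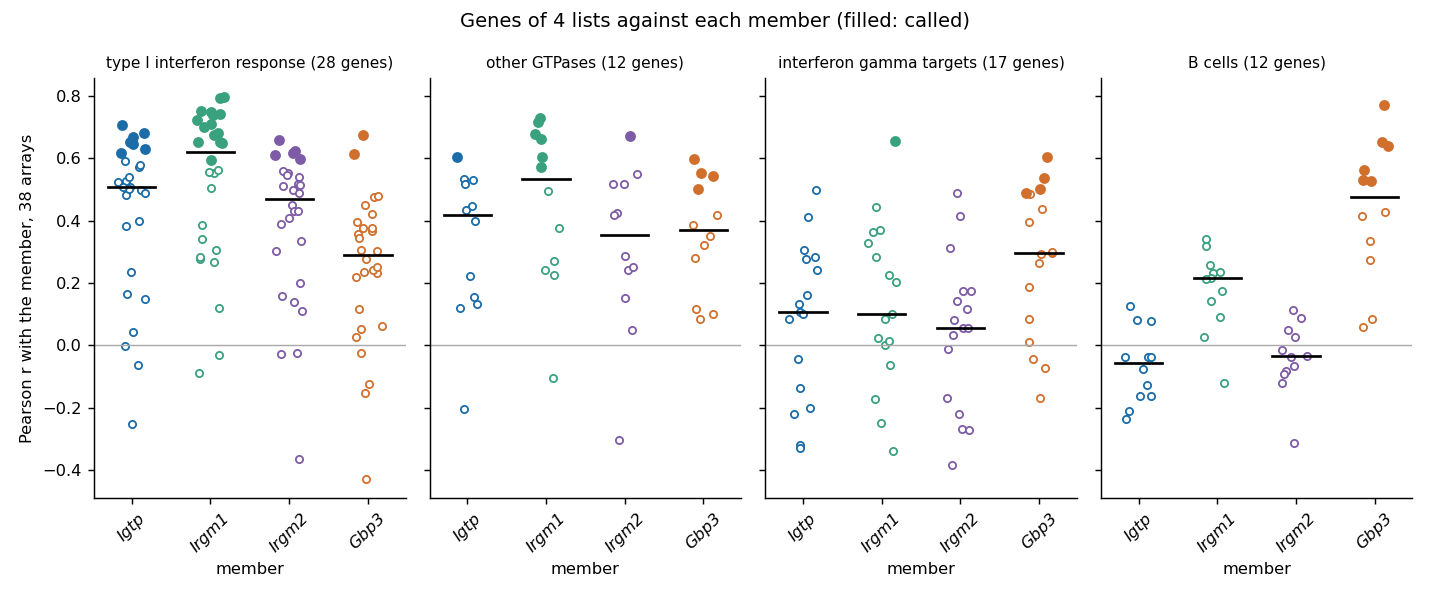
Pearson r over 38 arrays between each gene of 4 lists and Igtp, Irgm1, Irgm2 or Gbp3; filled points are genes called by limma and bars are list medians. For the type I interferon response the median is 0.621 with Irgm1 and 0.29 with Gbp3, and for B cell genes it is 0.477 with Gbp3 and 0.216 or lower with the others.

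Of 13 genes of interferon gamma signalling, 2 rose with Gbp3, beside 3.64% of all genes, the transcription factor genes Irf1 (slope 0.14 ± 0.02, SE, r = 0.708) and Stat2 (0.15 ± 0.04, r = 0.597). With Irgm1, Igtp and Irgm2 0 of 13 were called by limma. At an unadjusted p under 0.05 there were 4, 3 and 1 with these, and 4 with Gbp3. The list medians of r were 0.199, 0.0528 and 0.0231, and 0.207 with Gbp3. Of 17 further targets of interferon gamma, 4 rose with Gbp3. These were Parp14 (r = 0.604), the peptide transporter gene Tap1 (r = 0.502), Tapbp (r = 0.487), whose product tethers class I molecules to that transporter, and B2m (r = 0.535), the light chain of class I. With Irgm1 1 rose, Parp14 (r = 0.654), beside 0.322% of all genes, and 2 without BXD38, and with Igtp and Irgm2 0. At an unadjusted p under 0.05 there were 7 targets with Gbp3, 6 with Irgm1, 4 with Igtp and 3 with Irgm2. Differences between members in such counts were not tested. Without BXD11 and BXD98 together, the arrays farthest from the median, 0 signalling genes and 0 targets were called with Gbp3. Without BXD98 alone 1 signalling gene and 1 target were called, and the count of targets was 1 without BXD11, BXD38 or BXD73 and 2 without BXD24, BXD32, BXD51 or BXD96. Autophagy conjugation genes, of interest because Irgm1 has been tied to autophagy, gave 1 call of 13 with Gbp3, beside 3.64% of all genes. It was Atg7 (r = 0.491), and the call was lost without any 1 of 23 arrays. With the 3 regulators 0 were called. At an unadjusted p under 0.05 there were 2 with each regulator and 4 with Gbp3, again without a share of all genes beside them. Without BXD19 1 autophagy gene fell with Gbp3, without BXD69 1 rose with Igtp, and without BXD45 1 rose with Irgm1.

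Gbp3 went with some of the B cell genes. The gene most like it of all was Cd22, r = 0.771, which encodes an inhibitory co-receptor of B cells, followed by Themis2, r = 0.753, a signalling adaptor gene of B cells and macrophages. Elf4, r = 0.731, encodes an ETS transcription factor, and Naif1, r = 0.709, and Irf1, r = 0.708, came next. Of 12 B cell genes 6 rose with Gbp3, beside 3.64% of all genes. Among them were Cd79a (slope 0.19 ± 0.05, SE, r = 0.529) and Cd79b (0.15 ± 0.03, r = 0.653), the signalling chains of the B cell receptor, and the kinase gene Blk (0.16 ± 0.03, r = 0.639). The B cell genes not called ran from r = 0.0584 for Fcer2a and 0.0857 for Cd72 to 0.426 for Blnk. With each regulator 0 of the 12 were called by limma. At an unadjusted p under 0.05 there were 2 with Irgm1 and 0 with Igtp and Irgm2, with no share of all genes beside these counts. Without BXD24 or BXD98 3 B cell genes were called with Gbp3, and 1 without BXD11 and BXD98 together. Of 10 macrophage genes 2 rose with Gbp3, beside 3.64% of all genes, and 0 with the others. The 2 were the scavenger receptor gene Marco (r = 0.489) and the complement gene C1qc (r = 0.542). That count was 0 without BXD11 or BXD98 and 1 without BXD24, BXD32, BXD68, BXD70 or BXD96. No gene of the T cell, dendritic cell, NK cell, neutrophil, erythroid, plasma cell or pancreas lists was called by limma with any member over all 38 arrays. Of the 12 erythroid genes 10 were at an unadjusted p under 0.05 with Igtp and 10 with Irgm2, with list medians of r of 0.364 and 0.429, against 2 with Gbp3 and 0 with Irgm1. These counts also have no share of all genes beside them, and the medians of r over all genes are those given above. Without BXD24, 6 erythroid genes rose with Irgm2, in a setting where 297 probes were called with it, against 22 over all 38 arrays.

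The mean of the B cell list correlated with Gbp3 with r = 0.634 and rho = 0.566, and r was 0.527 without BXD24 and BXD98. The adjusted permutation p, over 36 relations of 4 members with 9 lists, was 0.00108 for r and 0.00936 for rho. BXD24, BXD32 and BXD11 had the 3 lowest B cell means, 11.09, 11.25 and 11.26, and Gbp3 levels of 11.46, 11.51 and 11.40. BXD98 had the highest B cell mean, 11.94, and the highest Gbp3 level. The macrophage mean had r = 0.51 and rho = 0.482 with Gbp3 (adjusted permutation p = 0.0189 for r and 0.0479 for rho). That r was 0.366 without BXD98 and BXD38. These 2 relations passed of the 36. The next was the erythroid mean with Irgm2, r = 0.45 (adjusted permutation p = 0.0571). The pancreas mean had r between -0.313 and -0.297 with all 4 members (adjusted permutation p = 0.257). With the B cell mean as a covariate, added after the values were seen, probes called with Gbp3 went from 777 to 0 by limma, with 1864 at an unadjusted p under 0.05, while 72 were called with Irgm1. With the pancreas mean as a covariate 389 were called with Gbp3. Without BXD98 the count with Gbp3 was 111, without BXD32 373, without BXD24 374, without BXD11 376, without BXD96 502 and without BXD21 1226. Without BXD11 and BXD98 together it was 12.

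**Figure D5:**
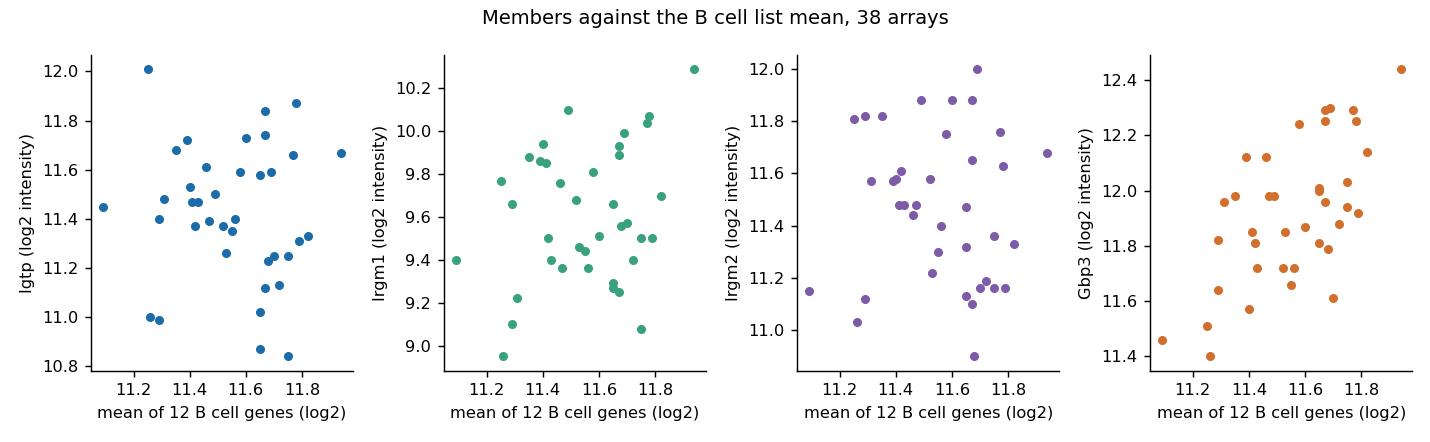
Log2 intensity of each member against the mean of 12 B cell genes over 38 arrays, 1 point per array. Gbp3 climbs with the B cell mean (r = 0.634), while Igtp and Irgm2 show r of -0.0683 and -0.0466.

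Whether Irgm1 and Gbp3 differ in what they go with was tested with both in 1 limma model, as the difference of their slopes, a comparison added after the values were seen. Of 17581 probes 88 had a higher and 113 a lower slope on Irgm1 (1.14% called in all). Of the 28 type I interferon genes 5 had a higher slope on Irgm1 than on Gbp3, beside 0.6% of all genes, and 0 a lower one. The median difference was 0.22, against 0.007 over all genes. Each slope here is that with the other gene held in the model. For Oas2 it was 0.80 on Irgm1 and -0.18 on Gbp3, a difference of 0.98 ± 0.20 (SE, limma adjusted p = 0.0137). In the fit on Gbp3 alone the slope of Oas2 was 0.22 ± 0.15. The other type I genes called were Oas1g, Oasl1, Cmpk2 and Ifi27, with differences from 0.39 to 0.88. Mx2 differed in the same direction, by 0.79 ± 0.19. Cd22 differed the other way, with slopes of -0.06 on Irgm1 and 0.26 on Gbp3, a difference of -0.32 ± 0.06 (limma adjusted p = 0.0124). In the fit on Irgm1 alone the slope of Cd22 was 0.07 ± 0.05. Of the 38 arrays 12 moved the count of probes by over 1.5 times when left out, between 22, without BXD32, and 532, without BXD61. Without BXD32 the count of type I genes was 3.

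Last, the members were set against the flow cytometry traits of the 34 strains that have both measures. The traits are on a natural log scale. LN T:B sets T cells over B cells, LN CD4:CD8 sets CD4+ over CD8+ cells, and LN MHC Med measures how much MHC class II the B cells carry. For LN T:B 26 probes were called by limma (0.148%), for LN CD4:CD8 0 (0%), with 1831 at an unadjusted p under 0.05, and for LN MHC Med 40 (0.227%). None was a member. The slope of Gbp3 per SD of LN T:B was -0.11 ± 0.04 log2 (SE, n = 34, limma adjusted p = 0.266, unadjusted 0.0107). Irgm1 had -0.10 ± 0.05, Igtp -0.06 ± 0.05 and Irgm2 -0.04 ± 0.05. On LN MHC Med the slope of Gbp3 was -0.09 ± 0.04 (limma adjusted p = 0.86), and the regulators lay between -0.02 and 0.01. On LN CD4:CD8 the 4 slopes lay between -0.02 and 0.01, each with an SE of 0.05 or 0.06. A p that misses the threshold does not show that the genes are unrelated to a trait. The 26 calls for LN T:B moved by over 1.5 times, to as few as 0, without any 1 of 23 of the 34 strains.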

How the data were processed

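Spleen RNA of 38 strains was measured on single-colour bead arrays, 1 per strain. The main file deposited by the authors gives the bead-averaged intensity of every probe, not normalized between arrays, each with its detection p-value, per the file headers. A second table deposited by the authors holds processed values that look like log2 intensities. The submitters' processing notes name lumi, the transformation stays unknown, and these values served as an alternative. Phenotypes deposited by the authors are a percent of lymphocytes, not used in a result, and traits on a natural log scale, per the labels. The slide of each array, the tissue of the cytometry and the mice behind each trait value are not given in the sources used here, so slide was not tested as a batch.

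For some probes the deposited detection p-value does not follow intensity, so a running median over 201 probes of neighbouring intensity took its place. This put the estimated background at 68.48 to 97.82 per array, with SDs of 9.814 to 14.49 in place of 235.8 to 582. Background correction, quantile normalization and the log2 step were done with neqc of limma 3.58.1 (offset 16, R 4.3.3, tables read with data.table version 1.17.8). Probes with a smoothed p under 0.01 on at least 3 arrays were kept. By the platform annotation 20256 probes had 1 gene symbol, 14227 had none and 9 had several, and 20211 matched a GRCm38.p6 gene list. A gene is represented by its probe of highest mean. Over gene-centred probes, all 38 arrays matched their own column of the authors' values best, with r from 0.515 (BXD12) to 0.857.

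Fits used lmFit and eBayes of limma with Benjamini-Hochberg adjustment over all probes. Correlations used numpy with two-sided permutation tests of 100000 resamples. Fits and the step rule were tested on simulated data. Named genes were the members, the 5 genes with the largest absolute r per member among those called, and up to 4 called genes per list, with others named to complete a count. The members, lists, rules and the added comparison of Irgm1 with Gbp3 were chosen with earlier results of these data known. Promoters are RefSeq's, matched by symbol for 5 of the 6 genes. Iigp1 promoters and protein sequences were not used here. Precision is limited by how many arrays there are.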

Additional observations from a re-analysis of the deposited data

How the results depend on the processing

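No paired analysis was possible because all arrays form 1 group. The alternatives were detection p-values as deposited, no background correction, the authors' processed table, other filters, male arrays only, covariates and arrays left out; those with the B cell mean as a covariate, the authors' table without BXD12 and single arrays left out were chosen after seeing the data, and no other probe of an analysed member exists here, so that alternative was not run. Fits with Gbp2 and Iigp1 were not run. The cause of each change was not tested. Members had 0 steps of 4 under all 6 alternatives.

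Of the 6 member pairs 5 passed by the adjusted p of r, and 2 in the authors' table. In that table r was 0.103 for Irgm1 and Irgm2, 0.249 for Irgm2 and Igtp and -0.0524 for Irgm2 and Gbp3. In the same order rho was 0.64, 0.74 and 0.265 there (adjusted permutation p = 1.0e-04, 3.0e-05 and 0.107 for rho). Igtp and Gbp3 passed with r = 0.488 without the 2 farthest arrays. In male arrays 1 relation with cell lists passed, and Gbp3 with macrophages had r = 0.429. Leaving out single arrays kept r of the pairs among regulators between 0.677 and 0.797.

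Probes called with Gbp3 numbered 1188 in the authors' table without BXD12, 343 in males, 389 with pancreas, 239 with the first principal component and 0 with the B cell mean as a covariate, 12 without the 2 farthest arrays, and 111 to 1226 with single arrays left out. With Igtp they were 36 with the B cell mean and 13 to 181. With Irgm1 they were 109 with p-values as deposited, 92 in the authors' table, 143 there without BXD12, 39 in males and 42 to 81. With Irgm2 they were 665, 5 in the authors' table without BXD12, 6 with no filter, 5 in males, 36, 76 and 65 with pancreas, component and B cell covariates, 3 without the farthest arrays and 4 to 297.

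Type I interferon genes higher with Irgm1 stayed within 1.5 times of 15 under every alternative run. With Gbp3 they were 4 with p-values as deposited and with no background correction, 5 in the authors' table with or without BXD12 and over probes detected on every array, 1 and 0 with the component and B cell covariates, 0 without the farthest arrays, and 1 to 5. With Irgm2 they were 0 in the authors' table, 1 there without BXD12, 1 with no filter, 0 in males, 3 with pancreas, 1 without the farthest arrays, and 0 to 11. With Igtp they were 5 to 11 with single arrays left out.

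Probes called for LN T:B were 10 with p-values as deposited and 0 in the authors' table, with no filter, in males, with each covariate and without the farthest strains, and 0 to 37 with single strains left out. For LN MHC Med they were 24 and 20 with the component and B cell covariates. The difference of Irgm1 and Gbp3 called 22 to 532 probes.

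In the authors' table slopes on Irgm2 turned to -0.01 for Cmpk2 and Gbp3 and -0.02 for Gbp7 and Isg20, and that of Irgm2 on Gbp3 to -0.03. Slopes of members on LN CD4:CD8 and LN MHC Med, none of them called, changed sign between settings, with values of 0.00, 0.01, 0.02, 0.03, -0.01, -0.02, -0.04 and -0.06. Values near background, Gbp2b at its lower level and Iigp1, limit what these arrays show.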
